A study of Mus musculus with 16 samples.

Results

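The mitochondrial genome of the mouse was measured here through its 37 genes, out of 55471 genes counted by RNA sequencing in 16 livers. All genes that the count files place on the chromosome MT were taken, and they comprised 13 mRNA genes, 2 rRNA genes and 22 tRNA genes. The livers fell into 4 groups of 4: aged mice (102 weeks) of the antibiotic group PAM II, aged mice (102 weeks) of the antibiotic group PAM I, aged mice (102 weeks) never given antibiotics, called aged controls, and young mice (12 weeks), also never given them. By the title of the series the antibiotics were an early-life exposure, and drug, dose, sex, strain and the meaning of the group names are not stated with the samples. A description field names the young animals as aged, and their age, group and title were followed instead. Libraries are numbered 1 to 4 within a group only to name them.

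Mitochondria carry their own small circular genome, which encodes core subunits of the respiratory chain and of the ATP synthase, the RNAs of the mitochondrial ribosome and the tRNAs that the ribosome uses. Each strand is transcribed by the polymerase Polrmt into a long precursor that spans nearly the whole circle, and the tRNAs that lie between the other genes are cut out to release mRNAs and rRNAs. Genes of the same precursor can still differ in level, because the released RNAs are processed and degraded separately. Hepatocytes are rich in mitochondria and rely on them for urea synthesis, fatty acid oxidation and ATP.

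Assigned fragments came to between 36968993 and 52090914 per library, with group means of 45920086 in PAM II, 45998076 in PAM I, 44566647 in aged controls and 40386212 in young livers. Hepatocyte markers summed to between 62225 and 121406 CPM (fragments per 1000000 assigned, scaled between libraries by TMM), and heart muscle markers to between 0.92 and 2.03 CPM, with Myh6 among the 2 of 6 at 0 in every library. Transcripts of skeletal muscle varied strongly: all 18 listed markers had fragments in each group, and they summed to 6.17 to 147 CPM in PAM II, 6.75 to 58.1 CPM in PAM I, 9.21 to 35.6 CPM in aged controls and 18.4 to 158 CPM in young livers. The brown fat list summed to between 130 and 840 CPM, although its defining gene Ucp1 had 0 to 16 fragments. In aged controls against young livers its member Cidea rose (54.2 against 0.0613 CPM, edgeR adjusted p = 5.6e-05) and its member Elovl3 fell (179 against 620 CPM, edgeR adjusted p = 0.0433). Markers of blood summed to 1474 CPM in PAM II replicate 1. They summed to between 124 and 593 CPM in the other libraries. Markers of Kupffer cells, the macrophages of the liver, were also highest there, at 818 CPM. The median log2 fold change of the 18 muscle markers was 3.63 in PAM II and 2.54 in PAM I against aged controls and -3.51 in aged controls against young livers, and none of them was called.

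The mRNA genes of the mitochondrial genome took 3.98, 7.80, 5.99 and 6.88% of the assigned fragments in PAM II livers. In PAM I livers they took 7.07, 6.90, 5.87 and 4.31%. In aged controls they took 4.53, 8.0, 6.29 and 8.77%, and in young livers 13.5, 6.10, 5.89 and 5.94%. Young replicate 1 stood apart from the other 15 libraries, and the remaining ranges overlapped in every comparison. Young replicate 1 was also the library with the highest sum of muscle markers, and PAM II replicate 1, with the lowest mitochondrial share, had the lowest. Other libraries differed from this order. PAM II replicate 4 had 147 CPM of muscle markers at a share of 6.88%, and aged control replicate 4 had 10.4 CPM at 8.77%. The part of muscle and blood transcripts in these shares was not tested. In liver tissue, fewer cells of a type and less RNA per cell cannot be told apart.

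The mean share was 6.16 ± 1.63% in PAM II, 6.04 ± 1.27% in PAM I, 6.90 ± 1.89% in aged controls and 7.85 ± 3.75% in young livers (SD, n = 4 each). On the log2 scale the difference was -0.16 for PAM II against aged controls, -0.17 for PAM I against aged controls, 0.01 for PAM II against PAM I and -0.13 for aged controls against young livers. Each of these was smaller than the pooled SD of the libraries compared, which lay between 0.38 and 0.51. Without young replicate 1 the difference between aged controls and young livers turned to 0.16, and without PAM II replicate 1 that between PAM II and aged controls turned to 0.03.

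**Figure D1:**
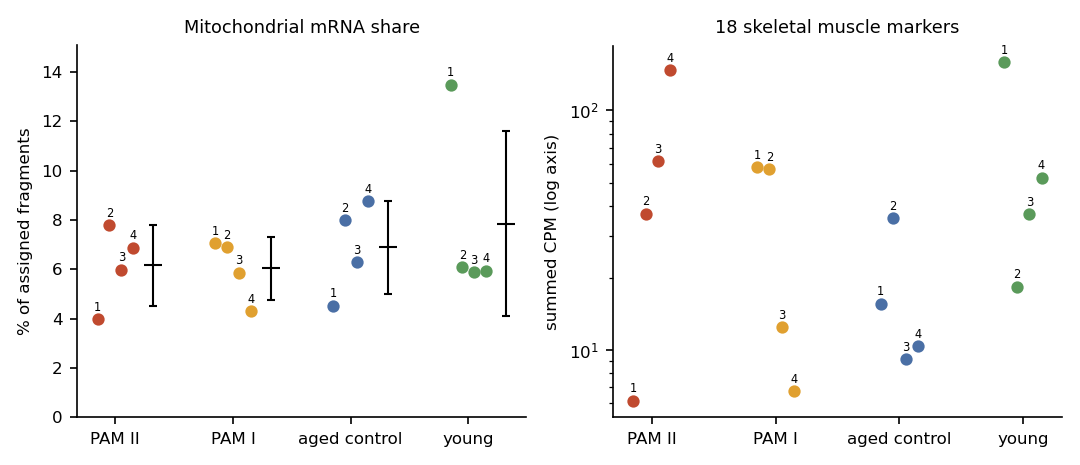
Left, share of assigned fragments on the 13 mitochondrial mRNA genes (%), and right, summed CPM of 18 skeletal muscle markers (log axis), for each of 16 livers in 4 groups. Points are libraries labelled with their replicate number, and the bars at left give the mean and SD of 4 libraries. Young replicate 1 was highest in both panels, at 13.5% and 158 CPM.

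Levels were compared between genes per length of gene, as CPM per kilobase, averaged over the 16 libraries. mt-Co1, the catalytic core of cytochrome c oxidase (complex IV), was highest with 15027 CPM per kilobase and exceeded the next gene in 16 of 16 libraries. That gene was mt-Cytb, the mitochondrially encoded subunit of complex III, with 13273 CPM per kilobase. Below them lay subunits of complex I, the NADH dehydrogenase: mt-Nd1 with 9563, mt-Nd2 with 8050, mt-Nd4 with 4089 and mt-Nd5 with 3462 CPM per kilobase. mt-Nd4 exceeded mt-Nd5 in only 12 of 16 libraries, so the order of these neighbours was not stable. The rRNA genes mt-Rnr1 and mt-Rnr2, which form the small and large subunits of the mitochondrial ribosome, had 841 and 670 CPM per kilobase. The labels do not say whether rRNA was depleted or polyadenylated RNA selected, and its part in the level of rRNA and tRNA was not tested. mt-Nd6, a complex I subunit and the only mRNA encoded on the other strand, had 230 CPM per kilobase.

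The 6 remaining mRNA genes had lower means than mt-Nd6, which exceeded the next of them, mt-Atp6, in 14 of 16 libraries. mt-Atp6 and mt-Atp8, subunits of the ATP synthase, had 188 and 58.2 CPM per kilobase. mt-Co2 and mt-Co3, subunits of complex IV, had 100.1 and 52.1, and mt-Nd4l and mt-Nd3, subunits of complex I, had 36.5 and 26.2 CPM per kilobase. These 6 genes sit next to each other on MT, between mt-Co1 and mt-Nd4. mt-Atp6 exceeded mt-Co2 in only 3 of 16 libraries although its mean was higher.

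The same stretch of sequence is also present in the nuclear genome. On GRCm38 a run of 7 annotated pseudogenes lies on the minus strand of chromosome 1, at chr1:24611535-24616197, which spans 4663 bases. Their order follows MT from the end of mt-Co1 (Gm29216) through mt-Co2 (Gm28661), mt-Atp6 (Gm10925), mt-Co3 (Gm28437), mt-Nd3 (Gm28438) and mt-Nd4l (Gm10222) to the first 876 bases of mt-Nd4 (Gm28439). Over the aligned stretches, mt-Co2 matched its copy in 681 of 681 bases, mt-Atp6 in 678 of 678 and mt-Co3 in 783 of 783. Within the aligned stretches the only substitution was A1066T in mt-Co1 against Gm29216, counted from the first base of the mt-Co1 gene. The alignment covered 483 of the 492 bases of Gm29216 and 342 of the 345 bases of Gm28438. Differences in the ends it left out were not counted. Short runs from the middle of the copy (mt-Atp6) and from its mt-Co1 end, taken from the GENCODE M21 transcripts of GRCm38, are shown so that the identity can be seen; the capital in the mt-Co1 pair marks the substituted base.
mt-Atp6, bases 301 to 360, MT plus strand: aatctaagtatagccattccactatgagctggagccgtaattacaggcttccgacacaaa
Gm10925, bases 301 to 360, chromosome 1 minus strand: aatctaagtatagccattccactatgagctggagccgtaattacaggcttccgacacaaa
mt-Co1, bases 1063 to 1122, MT plus strand: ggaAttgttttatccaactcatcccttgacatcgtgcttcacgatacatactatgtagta
Gm29216, bases 10 to 69, chromosome 1 minus strand: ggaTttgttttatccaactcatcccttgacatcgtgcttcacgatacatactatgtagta

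Of all windows of 100 bases in a gene, the share found letter for letter in an annotated nuclear transcript was 99.5% for mt-Co2, 99.5% for mt-Atp6, 99.9% for mt-Co3, 97.6% for mt-Nd3 and 98.5% for mt-Nd4l. It was 60.8% for mt-Nd4, 30.8% for mt-Co1 and 3.19% for mt-Nd2, whose match was Gm13339 on chromosome 2. It was 0 for mt-Nd1, mt-Nd5, mt-Nd6, mt-Cytb, mt-Rnr1 and mt-Rnr2. mt-Atp8 also had 0. Its last 43 bases, which overlap mt-Atp6, lie in the part matched by Gm10925 but cannot fill a window of 100 bases. The rest of mt-Atp8 falls in a gap of 233 bases between Gm10925 and Gm28661 that no annotated transcript covers. The matching ends on MT are likewise 233 bases apart. The sequence in that gap was not compared with MT. Per the file headers, counting used no option for fragments that align to several places. For the 5 genes with nearly all windows matched, a low count therefore cannot be told apart from a low level. mt-Atp8, which lies between them, was set aside with them without a matched window. The 7 mRNA genes that remain are the better measured ones: mt-Nd1, mt-Nd2, mt-Co1, mt-Nd4, mt-Nd5, mt-Nd6 and mt-Cytb. This division was made after the values were seen. Within the 7, mt-Nd4 and mt-Co1 are matched in part, at 60.8% and 30.8% of windows. Their counts and their levels per kilobase, taken over the full gene, may therefore be too low, which also limits the order of levels given above.

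**Figure D2:**
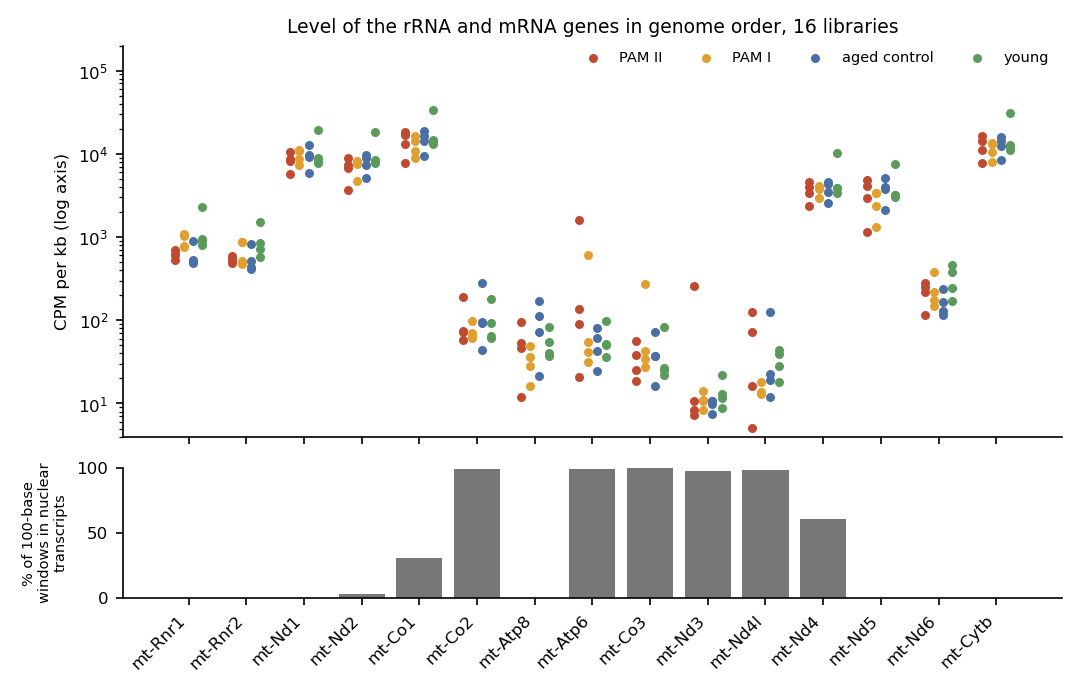
Upper panel, CPM per kilobase (log axis) of the 2 rRNA and 13 mRNA genes in genome order, 1 point per library and 4 groups side by side. Lower panel, share of 100-base windows of each gene found in annotated nuclear transcripts (%); the 6 genes from mt-Co2 to mt-Nd4l had the lowest means, from 26.2 to 188 CPM per kilobase, and all but mt-Atp8 had over 97% of windows in nuclear transcripts.

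Single libraries stood far above the rest for several of these 6 genes, most of all for mt-Atp6 and mt-Nd3. mt-Atp6 had 14.2, 61.8, 1080 and 92.1 CPM in PAM II livers. It had 36.9, 411, 28.6 and 21.6 CPM in PAM I livers, 16.5, 54.5, 29.5 and 42.1 CPM in aged controls and 66.7, 35.2, 34.0 and 24.7 CPM in young livers. Only PAM II replicate 3 and PAM I replicate 2 stood out, and the other 14 libraries of all groups overlapped. mt-Nd3 had 2.53, 3.72, 2.89 and 88.6 CPM in PAM II livers, where replicate 4 alone was high. It had 2.88 to 4.89 CPM in PAM I, 2.60 to 3.70 CPM in aged controls and 3.06 to 7.66 CPM in young livers.

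Relative to the fragments on the 7 other mRNA genes of the same library, 9 of 96 values of these genes reached 3 times the median of the 16 libraries or more, a limit set after the values were seen. mt-Atp6 reached 34.7 times the median in PAM II replicate 3, with 49677 fragments, and 11.4 times in PAM I replicate 2, with 19216 fragments. mt-Nd3 reached 22.6 times in PAM II replicate 4, with 3779 fragments, and mt-Co3 7.26 times in PAM I replicate 1, with 10106 fragments. mt-Co2 and mt-Atp8 were both high in aged control replicate 3, at 3.67 and 4.17 times. mt-Nd4l reached 5.22 times in PAM II replicate 2, 4.19 times in PAM II replicate 3 and 5.29 times in aged control replicate 2. Such values occurred in 7 of 12 aged libraries and in 0 of 4 young ones. The 7 other mRNA genes, scored as shares of their own sum, had 0 such values of 112. mt-Co1, with a median share of 34.1%, could not reach 3 times that, so this 0 was partly fixed in advance. Among the pseudogenes such values occurred in 2 of 112. Gm10222, the copy of mt-Nd4l, reached 3.70 times the median in PAM II replicate 2, where mt-Nd4l itself was high. Gm28437, the copy of mt-Co3, reached 4.59 times in young replicate 2, where mt-Co3 was not high. What set these libraries apart was not tested.

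**Figure D3:**
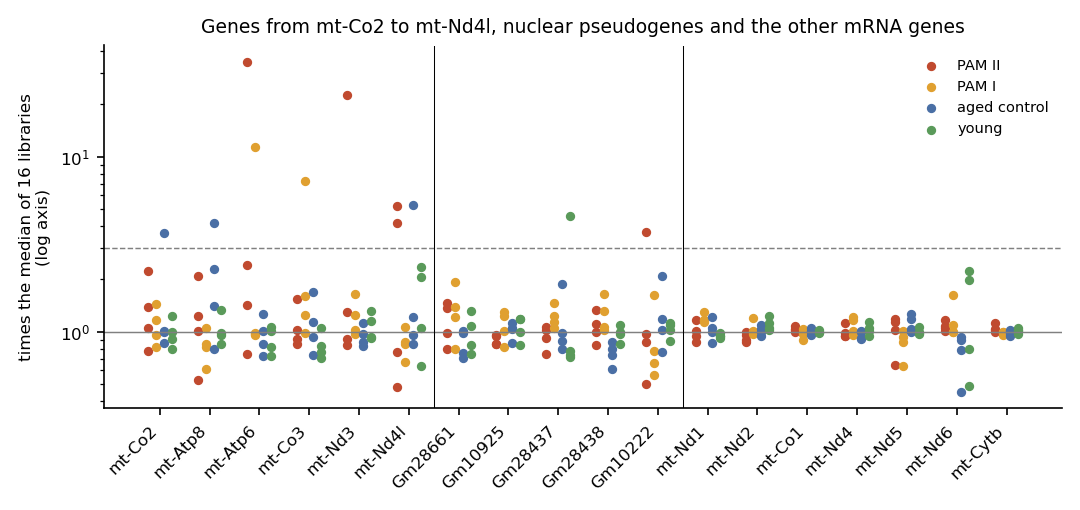
Fragments of each gene relative to the 7 better measured mRNA genes of the same library, as multiples of the median of 16 libraries (log axis; dashed line, 3 times the median). From left to right, the 6 genes from mt-Co2 to mt-Nd4l (of which mt-Atp8 has no matched window), 5 of the pseudogenes and the 7 other mRNA genes, with 4 groups side by side. Single libraries reach 34.7 times the median for mt-Atp6 and 22.6 times for mt-Nd3. None of the 7 other genes reaches the dashed line, but mt-Co1, scored as a share of their sum, could not.

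No mitochondrial mRNA gene passed the test in any of the 4 comparisons (edgeR quasi-likelihood test, Benjamini-Hochberg adjusted over 17046 genes, threshold 0.05). For PAM II against aged controls, 0 of 26 mitochondrial genes tested were called, beside 0% of all genes. Of the 26, 2 had an unadjusted p under 0.05, beside 2.73% of all genes, and DESeq2 called 0 genes in all. None of the 26 had groups without overlap in CPM, beside 0.81% of all genes higher and 1.29% lower, and 10 of 26 log2 fold changes were positive, beside 51.4% of all. For PAM I against aged controls it was also 0 of 26 beside 0%. There 1 of the 26 had an unadjusted p under 0.05, beside 9.4% of all genes, and DESeq2 called 13 genes in all (0.0602%), none of them mitochondrial. None of the 26 was without overlap, beside 3.07% higher and 2.4% lower over all genes, and 11 of 26 fold changes were positive, beside 52.4%. Between PAM II and PAM I it was again 0 of 26 beside 0%, with 2 under an unadjusted 0.05 beside 4.56% of all genes and 0 calls by DESeq2, and 12 of 26 fold changes were positive, beside 50.9%. For aged controls against young livers 1 of 26 was called, the tRNA gene mt-Ti, beside 3.23% of all genes. There 7 of 26 had an unadjusted p under 0.05, beside 19% of all genes, and DESeq2 called mt-Ti, mt-Rnr1 and mt-Tq, beside 6.64% of all genes. None of the 26 was without overlap, beside 4.83% higher and 4.44% lower. The p-values measure the spread between these samples, and both antibiotic comparisons share the same controls.

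In PAM II against aged controls, the log2 fold changes of the 7 better measured mRNA genes lay between -0.23 and 0.42, with a median of -0.07 beside 0.01 over all genes. mt-Co1 averaged 21742 ± 7204 CPM in PAM II and 22769 ± 6162 CPM in aged controls (SD, n = 4 each), a log2 fold change of -0.07 with a 95% interval of -0.72 to 0.59. mt-Cytb averaged 14166 ± 4279 CPM in PAM II and 14534 ± 3619 CPM in aged controls, with an interval of -0.67 to 0.60. The outer values came from genes between mt-Co2 and mt-Nd4l. mt-Atp6 had 3.13 ± 1.16 and mt-Nd3 2.86 ± 0.91 (SE, edgeR adjusted p = 1.0 for both), and each rested on its high library: mt-Atp6 had 0.65 without PAM II replicate 3, and mt-Nd3 had -0.15 without PAM II replicate 4.

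In PAM I against aged controls the same 7 genes lay between -0.54 and 0.51, with a median of -0.15 beside 0.02 over all genes. mt-Nd5, which encodes a proton-pumping subunit of complex I, had 6108, 6149, 4275 and 2407 CPM in PAM I livers. In aged controls mt-Nd5 had 3878, 9369, 6974 and 7319 CPM. The groups overlapped, and the log2 fold change of mt-Nd5 was -0.54 ± 0.43 (edgeR adjusted p = 0.709). mt-Atp8 had 9.90, 7.46, 5.81 and 3.30 CPM in PAM I and 4.42, 14.9, 35.2 and 23.2 CPM in aged controls, a log2 fold change of -1.55 ± 0.58 (edgeR adjusted p = 0.506). mt-Atp6 had 1.80 ± 1.11, and -0.31 without PAM I replicate 2. mt-Co3 had 1.21 ± 0.69, and -0.24 without PAM I replicate 1. mt-Nd4l had -1.64 ± 0.81, and -0.33 without aged control replicate 2.

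Between PAM II and PAM I the 7 genes lay between -0.21 and 0.32, with a median of -0.05 beside 0.01 over all genes. Among the genes of the copied stretch, mt-Nd3 had 2.68 ± 0.90, and -0.32 without PAM II replicate 4, and mt-Co3 had -1.43 ± 0.69, and 0.01 without PAM I replicate 1. mt-Nd4l had 1.5, 37.0, 21.3 and 4.78 CPM in PAM II livers and 5.33, 3.94, 4.09 and 3.82 CPM in PAM I livers, with overlap. Its log2 fold change of 1.91 ± 0.81 (edgeR adjusted p = 0.880) lay between 1.10 and 2.30 in the 16 fits that left out a library. It was -1.41 among libraries with fewer than 50 Acta1 fragments. PAM II replicate 1, the library with the lowest mt-Nd4l of all, was the only PAM II liver in that fit. mt-Rnr1 was the 1 gene of 26 whose groups did not overlap, beside 2.9% of all genes that were lower and 1.76% that were higher in PAM II with no overlap. It had 676, 574, 592 and 501 CPM in PAM II livers and 1052, 988, 732 and 750 CPM in PAM I livers, a log2 fold change of -0.59 ± 0.30 (edgeR adjusted p = 0.880). mt-Rnr2 had 767 to 944 CPM in PAM II and 754 to 1391 CPM in PAM I, with overlap and a log2 fold change of -0.36 ± 0.29 (edgeR adjusted p = 0.880).

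In aged controls against young livers, 21 of 26 tested genes had a negative log2 fold change and 5 a positive one, beside 49.1% positive over all genes, with a median of -0.37 beside -0.01 over all genes. Markers of hepatocytes and blood had negative medians as well: the 7 hepatocyte markers had a median of -0.47, with 5 at an unadjusted p under 0.05 and 1, Serpina1c, called (-0.98 ± 0.21, edgeR adjusted p = 0.0202), and all 5 blood markers were negative, with a median of -0.87 and none called. Of the 18 muscle markers 0 were positive, with a median of -3.51. By contrast 6 of 6 Kupffer cell markers were positive, with a median of 0.65, and none of either list was called. The part of these marker lists in the mitochondrial values was not tested. All 7 better measured mRNA genes were among the 21 mitochondrial genes with a negative value, from -0.96 to -0.16, and 0 of 7 passed the test. These negative values rested in part on young replicate 1: mt-Co1 had 51244 CPM there and between 20102 and 22670 CPM in the other young livers, and its log2 fold change of -0.34 ± 0.33 had a range of -0.48 to 0.09 when each library was left out in turn. mt-Nd4 had -0.51 ± 0.32 with a range of -0.68 to 0.01. mt-Nd6 had -0.96 ± 0.36 (edgeR adjusted p = 0.161) and stayed negative, between -1.20 and -0.70, in those fits.

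mt-Rnr1 had 485, 462, 512 and 862 CPM in aged controls and 2164, 897, 757 and 847 CPM in young livers. Aged control replicate 4 alone reached into the young range. Its log2 fold change was -1.01 ± 0.30 (edgeR adjusted p = 0.0779). It was called without aged control replicate 4 (edgeR adjusted p = 0.0488) and by DESeq2 (adjusted p = 0.0187), and it had -0.53 without young replicate 1. mt-Rnr2 had 662 to 1287 CPM in aged controls and 912 to 2402 CPM in young livers, a log2 fold change of -0.74 ± 0.29 (edgeR adjusted p = 0.181).

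**Figure D4:**
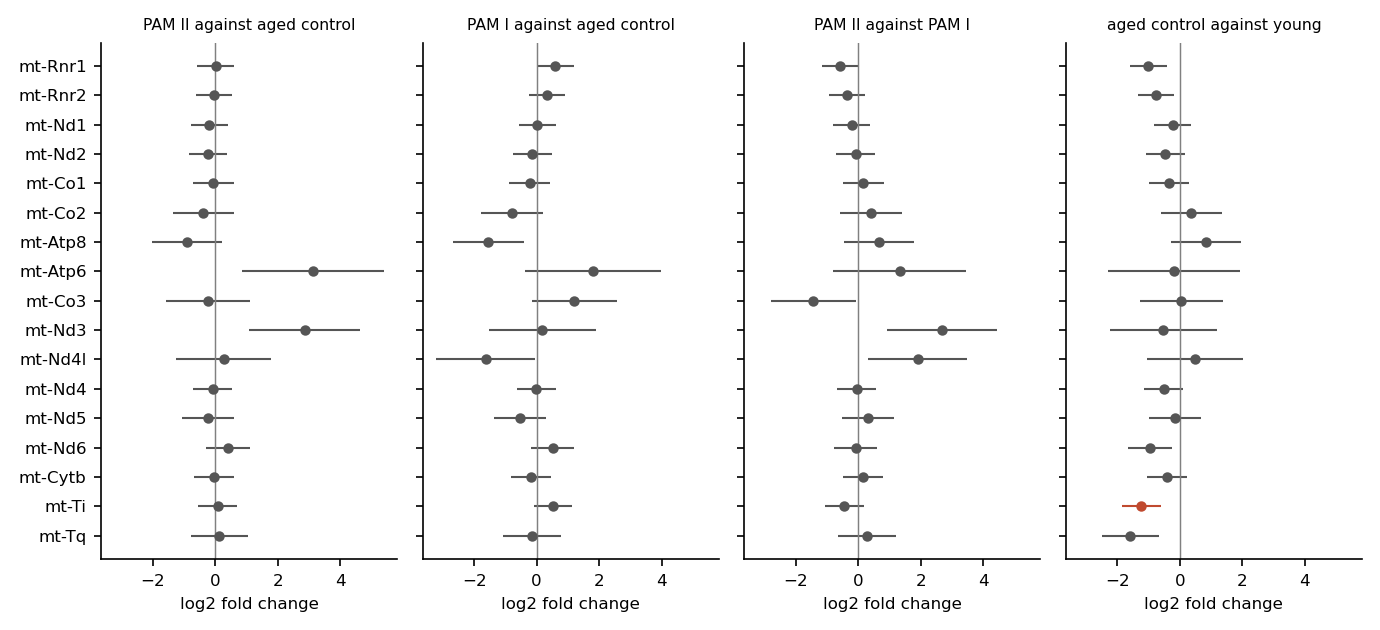
Log2 fold changes of the 2 rRNA genes, the 13 mRNA genes and the tRNA genes mt-Ti and mt-Tq in 4 comparisons, with 95% intervals from the standard errors of the edgeR fit. Only mt-Ti in aged controls against young livers, in red, had an adjusted p under 0.05; the widest intervals are those of genes from mt-Co2 to mt-Nd4l, such as mt-Atp6.

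The tRNA genes were thinly covered, with 28529 fragments over all libraries, of which 26237 fell on the 5 most counted. Of 22 tRNA genes, 14 lie on the plus strand and took 26607 fragments, and 8 lie on the minus strand and took 1922. mt-Tf and mt-Ts2 had 0 fragments in all 16 libraries, which allows up to 0.00424 fragments per 1000000 assigned (3 counts, counting error only). The filter on low counts kept 11 tRNA genes, of which 10 averaged at least 10 fragments per library: mt-Tl1, mt-Ti, mt-Tq, mt-Tm, mt-Tw, mt-Ts1, mt-Te, mt-Tt, mt-Tp and mt-Tg. The other, mt-Tr, had 2 to 15 fragments.

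mt-Ti encodes the isoleucine tRNA and lies at 3706 to 3774 of MT on the plus strand. mt-Tq, which encodes the glutamine tRNA, lies on the minus strand at 3772 to 3842 and overlaps mt-Ti by 3 bases. Their sequences from GENCODE M21, GRCm38, are shown because these tRNAs had the lowest adjusted p among all mitochondrial genes, and the capitals mark the anticodon, bases 30 to 32 of mt-Ti and 33 to 35 of mt-Tq.
mt-Ti: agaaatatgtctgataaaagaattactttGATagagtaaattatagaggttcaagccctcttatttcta
mt-Tq: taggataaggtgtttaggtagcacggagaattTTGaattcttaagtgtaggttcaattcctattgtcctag

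mt-Ti had 6.29, 7.64, 5.79 and 9.42 CPM in aged controls and 33.0, 12.6, 8.60 and 14.2 CPM in young livers. Young replicate 1 was far above the rest and young replicate 3 lay within the aged range, so the groups overlapped. mt-Ti fell by 1.23 ± 0.32 on the log2 scale (edgeR adjusted p = 0.0482), the only mitochondrial call, beside 1.31% of all genes called lower. The call was held in 4 of 16 fits that left out a library and in 2 of 7 other alternatives. Without young replicate 1 its log2 fold change was -0.70 (edgeR adjusted p = 0.12), and with the muscle list as a covariate it was -0.98 (edgeR adjusted p = 0.18). In the aged groups mt-Ti had 7.11 to 8.94 CPM in PAM II and 7.22 to 12.6 CPM in PAM I. Its log2 fold changes against aged controls were 0.08 ± 0.32 for PAM II and 0.52 ± 0.32 for PAM I (edgeR adjusted p = 1.0 and 0.621).

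mt-Tq had 0.222, 0.412, 0.329 and 0.646 CPM in aged controls and 0.549, 0.574, 1.34 and 2.36 CPM in young livers, from between 10 and 88 fragments per library over all groups. Only aged control replicate 4 reached into the young range, and the high young libraries were replicates 3 and 4. Its log2 fold change was -1.58 ± 0.46 (edgeR adjusted p = 0.0736), called without young replicate 2 (edgeR adjusted p = 0.0433) and by DESeq2 (adjusted p = 0.0206). mt-Tp, the proline tRNA on the same strand, had 0.484, 0.343, 0.482 and 0.223 CPM in aged controls and 0.336, 0.624, 0.923 and 1.77 CPM in young livers, a log2 fold change of -1.25 ± 0.44 (edgeR adjusted p = 0.132). mt-Te, the glutamate tRNA beside mt-Nd6, had -0.38 ± 0.46 and mt-Ts1, a serine tRNA of that strand, 0.02 ± 0.39. Of the 11 tRNA genes tested, 10 had a negative log2 fold change in aged controls against young livers, and 1 was called. mt-Tt, the threonine tRNA, had 0.636 to 1.10 CPM in PAM II, 0.906 to 1.55 CPM in PAM I and 1.10 to 1.71 CPM in aged controls, and its log2 fold change for PAM II against aged controls was -0.64 ± 0.37 (edgeR adjusted p = 1.0).

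Ratios within the mitochondrial genome do not depend on the scaling of libraries. They are given as descriptions with no test. Of 148 pairs of a measure and a comparison computed, 8 had groups that did not overlap. The 148 also cover the share of assigned fragments, summed CPM and the pseudogenes. Most of the 8 rest on the same mt-Nd6 counts over similar denominators, so they are not independent. Another is the pseudogene Gm28438, higher in PAM I than in aged controls. Over single genes, 3.07% were higher there with no overlap in CPM. The ratio of rRNA to mRNA fragments was 4.05, 1.86, 2.40 and 1.85% in PAM II livers. It was 3.38, 3.47, 2.74 and 3.74% in PAM I livers, 2.68, 1.42, 2.05 and 2.76% in aged controls and 3.0, 3.46, 2.79 and 3.11% in young livers. Every aged control lay below every young liver, although the nearest values, 2.76% and 2.79%, were close. Over single genes, 4.44% of all genes were lower in aged controls with no overlap in CPM. With mt-Rnr2 alone in place of both rRNAs the groups overlapped. In PAM I the ratio was higher than in aged controls in 15 of 16 pairs of libraries, with a log2 difference of 0.62, which was 0.42 to 0.74 when each library was left out. PAM II replicate 1, the library with the highest blood markers, had the highest ratio of all. Without it the difference between PAM II and aged controls, 0.16, became -0.09.

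mt-Nd6 is transcribed from the opposite strand to the other mRNA genes, and its first 60 bases, with the start codon in capitals, were taken from GENCODE M21 on GRCm38, where the gene lies at 13552 to 14070 of MT on the minus strand and overlaps mt-Nd5 by 14 bases.
mt-Nd6: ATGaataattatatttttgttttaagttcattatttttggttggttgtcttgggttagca

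For every 100 fragments on the other 12 mRNA genes, mt-Nd6 had 0.170, 0.178, 0.192 and 0.181 fragments in PAM II livers. It had 0.273, 0.166, 0.168 and 0.184 in PAM I livers, 0.157, 0.151, 0.133 and 0.0763 in aged controls and 0.0826, 0.135, 0.334 and 0.374 in young livers. All 8 livers of the antibiotic groups lay above all 4 aged controls, while young livers ranged from the aged control level to the highest values of all. Over single genes, 0.81% were higher in PAM II and 3.07% higher in PAM I than in aged controls with no overlap in CPM. The log2 difference from aged controls was 0.53 for PAM II and 0.64 for PAM I. Without aged control replicate 4 these became 0.30 and 0.40. Over mt-Cytb alone the PAM II difference was 0.46 and its lowest library, at 0.688%, lay just below the highest aged control, at 0.694%. As a single gene, mt-Nd6 had 60.5, 144, 114 and 130 CPM in PAM II, 197, 113, 90.7 and 76.5 CPM in PAM I and 67.2, 123, 85.9 and 59.3 CPM in aged controls, with overlap. Its log2 fold changes were 0.42 ± 0.36 for PAM II and 0.51 ± 0.36 for PAM I (edgeR adjusted p = 1.0 and 0.673).

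**Figure D5:**
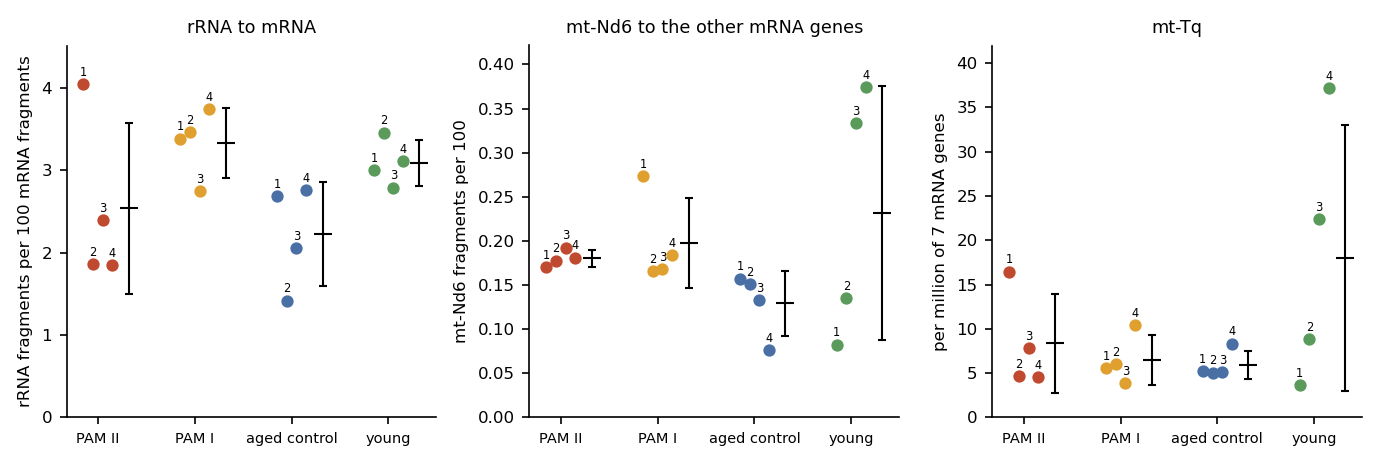
Ratios within the mitochondrial genome for 16 livers in 4 groups: rRNA fragments per 100 mRNA fragments, mt-Nd6 fragments per 100 fragments of the other mRNA genes, and mt-Tq fragments per 1000000 fragments of 7 mRNA genes. Points are libraries labelled with their replicate number and bars give the mean and SD of 4; in the middle panel the antibiotic groups lie at 0.166 to 0.273 and aged controls at 0.0763 to 0.157, and in the middle and right panels young replicates 3 and 4 are highest.

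The same 2 young libraries were highest for 2 of the 4 tested tRNA genes of that strand, mt-Tq and mt-Tp, and not for mt-Te and mt-Ts1. Relative to the 7 better measured mRNA genes, mt-Tq had 16.4, 4.68, 7.84 and 4.58 fragments per 1000000 in PAM II and 5.54, 6.03, 3.84 and 10.4 in PAM I. It had 5.20, 5.06, 5.09 and 8.32 in aged controls and 3.62, 8.84, 22.4 and 37.2 in young livers, so that young replicates 3 and 4 exceeded all other libraries. mt-Tp had 15.4 and 27.9 in those young libraries, and 2.21 in young replicate 1. mt-Te had 10.97 and 19.4 in young replicates 3 and 4, and 16.1 and 16.0 in aged control replicates 1 and 3. mt-Ts1 had 5.69 and 5.91 in young replicates 3 and 4 beside a range of 4.90 to 12.5 over all libraries. These values rest on few fragments. mt-Tt, on the plus strand, had 17.9, 13.1, 13.1 and 15.4 fragments per 1000000 in PAM II livers and 21.6, 22.5, 19.6 and 21.8 in PAM I livers. Here every PAM II liver lay below every PAM I liver, on 35 to 74 mt-Tt fragments per library in these groups. Over single genes, 2.9% were lower in PAM II than in PAM I with no overlap in CPM. In CPM the mt-Tt values of these groups overlapped, with a log2 fold change of -0.50 ± 0.37 (edgeR adjusted p = 0.880).

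Among the 7 better measured mRNAs, mt-Co1 made up 30.6 to 36.7% of the fragments in the 16 libraries and mt-Cytb 20.9 to 24.7%. mt-Nd6, the least abundant, ranged from 0.0764 to 0.373% and mt-Nd1 from 11.3 to 17.1%. mt-Nd5 varied most among the abundant ones, from 5.80 to 11.5%, and was lowest in PAM I replicate 4 (5.80%) and PAM II replicate 1 (5.84%). mt-Nd5 shares averaged 9.07 ± 2.24% in PAM II, 7.83 ± 1.44% in PAM I, 10.2 ± 1.15% in aged controls and 9.13 ± 0.39% in young livers (SD, n = 4 each). mt-Nd1 made up 15.7 ± 0.940% in PAM I and 13.5 ± 1.92% in aged controls, higher in 13 of 16 pairs of libraries. For that comparison the shares of mt-Nd6, mt-Nd4 and mt-Nd2 were higher in PAM I in 16, 14 and 9 of 16 pairs. Those of mt-Cytb, mt-Co1 and mt-Nd5 were higher in 6, 5 and 1 of 16. These shares belong to 1 sum, so they are not independent.

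Nuclear genes supply the machinery that reads and maintains the mitochondrial genome, and 5 lists of them were read from the same fit. Of 11 genes of mitochondrial transcription, 28 of RNA processing and decay, 21 of DNA replication and maintenance, 14 regulators of biogenesis and 40 of respiratory chain assembly, 0 were called in PAM II against aged controls, in PAM I against aged controls or between PAM II and PAM I, beside 0% of all genes in each. In aged controls against young livers 1 was called, beside 3.23% of all genes. Ndufaf6, an assembly factor of complex I, fell by 0.46 ± 0.11 on the log2 scale (edgeR adjusted p = 0.0384), with 6.86, 8.57, 7.19 and 7.66 CPM in aged controls and 9.71, 10.3, 9.64 and 12.0 CPM in young livers. These groups did not overlap, but the call was held in only 3 of 16 fits that left out a library and in 2 of 7 other alternatives.

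Polrmt, the mitochondrial RNA polymerase, had 27.1, 29.4, 30.4 and 24.4 CPM in aged controls and 37.6, 31.8, 31.4 and 33.7 CPM in young livers, a log2 fold change of -0.27 ± 0.09 (edgeR adjusted p = 0.116). Mterf4, which acts in assembly of the mitochondrial ribosome, had -0.29 ± 0.11 in the same comparison (edgeR adjusted p = 0.145). Endog, a mitochondrial endonuclease, had -0.39 ± 0.12 (edgeR adjusted p = 0.0826). In PAM I against aged controls, Mrpl12, a protein of the mitochondrial ribosome also described as binding Polrmt, had 133, 133, 118 and 154 CPM in PAM I and 108, 103, 111 and 91.5 CPM in aged controls, a log2 fold change of 0.38 ± 0.11 (edgeR adjusted p = 0.506). Slirp, which stabilizes mitochondrial mRNAs, had 0.29 ± 0.13 (edgeR adjusted p = 0.514). In PAM II against aged controls, Mterf2, a member of the mitochondrial termination factor family, had 0.45 ± 0.17 (edgeR adjusted p = 1.0), from 2.47 ± 0.262 CPM in PAM II and 1.81 ± 0.299 CPM in aged controls.

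The medians of the 5 lists lay between -0.17 and 0.16 in both antibiotic comparisons with aged controls. For transcription they were 0.02 in PAM II and 0.03 in PAM I against aged controls, and for RNA processing 0.00 and 0.02, beside 0.01 and 0.02 over all genes. For DNA replication and maintenance they were -0.01 and 0.01, for regulators of biogenesis -0.09 and -0.17, and for respiratory chain assembly 0.05 and 0.16. In aged controls against young livers the medians were -0.02 for transcription, -0.13 for RNA processing, -0.13 for DNA replication and maintenance, -0.13 for regulators of biogenesis and -0.12 for assembly, beside -0.01 over all genes.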

How the data were processed

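Total RNA of 16 frozen mouse liver portions was sequenced, 4 livers in each of 4 groups. For each library a table of unscaled fragment counts by gene was deposited. The submitters' processing notes name Trimmomatic 0.38, HISAT2 2.1.0, featureCounts 1.5.0-p2 and the mm10 build. Counting, per the file headers, summed the exons of each gene in Ensembl annotation 99 of GRCm38 for read pairs on strand setting 1, with no option for fragments aligned to several places or genes.

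The counts entered edgeR 4.0.16 (R 4.3.3): filterByExpr with the 4 groups (17046 genes, 26 of them mitochondrial), TMM scaling and a robust quasi-likelihood model with 1 mean per group over 16 libraries. Calls are two-sided at a Benjamini-Hochberg adjusted p under 0.05 over all genes, per comparison, and the method was tested on simulated data. The alternatives were RLE scaling, scaling from genes outside MT, no filter, DESeq2 1.42.0, only the 8 libraries compared, the muscle list as covariate and each library left out; libraries with fewer than 50 Acta1 fragments and the division into 7 and 6 mRNA genes were chosen after seeing the data. The Acta1 limit kept 7 libraries, in which PAM II replicate 1 and young replicate 2 were alone in their groups. Members and gene lists were chosen with earlier results of these data known. The genes named were all mRNA and rRNA genes, tRNA genes averaging at least 10 fragments or called, and per nuclear list up to 4 called genes, or up to 2 with the smallest p. Nuclear matches were found in GENCODE M21 transcripts with windows of 100 bases. The limit given for a count of 0 covers counting error only.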

Additional observations from a re-analysis of the deposited data

Results flagged for a closer look

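Each value here had a gap to its nearest neighbour in a group of 4 livers that exceeded the 95% critical value of Dixon's test. There were 25 such values among 168 groups checked; chance flags about 1 in 20 groups, and values of neighbouring genes in 1 library are not independent.

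Young replicate 1 was high for mt-Nd1 (18419 CPM), mt-Nd2 (19043 CPM), mt-Co1 (51244 CPM), mt-Co3 (64.3 CPM), mt-Nd4 (14077 CPM), mt-Nd5 (13586 CPM), mt-Cytb (35286 CPM) and mt-Rnr1 (2164 CPM), and for the share of assigned fragments on mitochondrial mRNA genes (13.5%). This library also had the highest sum of muscle markers, 158 CPM, whose part was not tested.

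Among the genes within the chromosome 1 copy, PAM II replicate 4 was high for mt-Co2 (129 CPM) and mt-Nd3 (88.6 CPM), PAM II replicate 3 and PAM I replicate 2 for mt-Atp6 (1080 and 411 CPM), PAM I replicate 1 for mt-Co3 (212 CPM) and aged control replicate 2 for mt-Nd4l (37.4 CPM). Of the pseudogenes, per 1000000 fragments of the 7 better measured mRNA genes, Gm10222 was high in PAM II replicate 2 (227), and Gm28437 in aged control replicate 1 (587) and young replicate 2 (1440).

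mt-Rnr1 was high in aged control replicate 4 (862 CPM) and mt-Ts1 in PAM II replicate 2 (0.709 CPM). mt-Tq was low in PAM I replicate 3 (0.207 CPM). PAM I replicate 1 was high for the ratio of mt-Nd6 to the other mRNA genes (0.273%) and for the mt-Nd6 share of the 7 genes (0.274%). PAM I replicate 3 was high for the mt-Nd2 share (14.3%), and young replicate 2 for the mt-Co1 share (34.9%).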

How the results depend on the processing

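No mitochondrial mRNA gene was called in any of the 4 comparisons in the 16 fits that left out a library, in the 7 other alternatives, or when only the 7 better measured genes were read; this reading and the Acta1 limit were added after seeing the data. The differences in mRNA share, rRNA to mRNA ratio and mt-Nd6 ratio moved by less than the spread between libraries under every alternative run; the mRNA share of aged controls against young livers ranged from -0.26 to 0.16 on the log2 scale when libraries were left out. The call of mt-Ti in aged controls against young livers was held with RLE scaling and DESeq2. It was lost with scaling from genes outside MT (edgeR adjusted p = 0.0526), no filter (0.0707), the muscle covariate (0.18) and only the 8 libraries compared (0.175). The cause was not tested. The limit of fewer than 50 Acta1 fragments left young replicate 2 as the only young library, so that fit cannot decide on the call. Of these 7 alternatives, 2 held the call of Ndufaf6. No called value changed sign, while values that were not called did, such as mt-Atp6 in PAM I against aged controls (-0.31 without PAM I replicate 2). The median over all genes moved by under 0.1 with either other scaling. No paired analysis was possible because the labels number the samples 1 to 16 and give no replicate number shared between groups. Low counts limit the tRNA genes most, 12 of which averaged under 10 fragments. Counting used no option for fragments that reach into several genes, and its part in these low counts was not tested.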
